A study of Chlorocebus sabaeus with 18 samples.

Results

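The genes described here are targets of the tumour suppressor p53, a list of 31 genes whose transcription p53 is known to raise. Each gene was read from the transcript cluster, the array's unit for a gene, with the highest mean signal among those that carry its symbol alone. This gave 29 measured genes of 33616 genes with 1 symbol on the array. Of these, 28 passed the filter on low values and were tested, among 23836 named genes and 67854 transcript clusters tested in all. FDXR, ferredoxin reductase, lay below the filter, with values of 2.98 to 3.81 on the log2 scale. BBC3, the apoptosis gene PUMA, was not read because its cluster also carries the symbol of a microRNA, and BTG2 and the gene of p53 itself were not analysed here.

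RNA came from COS-7 cells, a fibroblast-like line from the kidney of the green monkey Chlorocebus sabaeus, and was hybridised to 18 Clariom D Human arrays, whose probes were designed for human transcripts. There were 3 arrays in each of 6 groups. CGG cells were transfected with the 5′ untranslated region of FMR1 holding 60 CGG repeats. TRA2A-overexpressing cells were made to overexpress the splicing factor TRA2A, and their titles also name GFP. TRA2A-knockdown cells had TRA2A knocked down, with an siRNA by their titles. In 2 combined groups the repeat construct was joined with the overexpression or with the knockdown. Control cells were COS-7 cells for which the labels name no treatment. Their cell line label is COS-7 on all 3 arrays, but their condition label reads COS-7 on array 1, COS-6 on array 2 and COS-5 on array 3, which the labels do not explain. The labels name no group with the construct without the repeat, an empty vector or a control siRNA. By the labels, then, the repeat or TRA2A and the act of transfection cannot be told apart in comparisons with controls. The same holds for the interactions, which also use the controls. Separate cultures are not stated for the 3 arrays within a group, so p-values measure the spread between arrays, which may be technical. CGG array 1 and TRA2A-knockdown array 3 were rehybridised.

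p53 is held at a low level by the ubiquitin ligase MDM2 and accumulates after DNA damage and other stress. It then raises genes that stop the cell cycle, such as CDKN1A, genes that promote apoptosis, genes of DNA repair and metabolism, and its own inhibitors MDM2 and PPM1D. COS-7 cells were made by transformation with simian virus 40 and produce its large T antigen, a viral protein that binds p53.

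The labels were checked first. TRA2A lay between 18.39 and 18.70 in overexpressing cells, 11.20 and 12.04 in knockdown cells, 17.11 and 17.22 in CGG cells with overexpression, 11.63 and 11.96 in CGG cells with knockdown, and 14.49 and 14.71 in CGG cells, against 14.54 to 14.68 in control cells. Array medians ran from 4.14 to 4.20, and the correlation between 2 arrays over all clusters was 0.974 to 0.986. Most markers of the line's kind were high, with mean values of 15.86 for VIM, 15.19 for FN1, 13.99 for KRT8, 12.46 for EPCAM and 11.53 for KRT18. CDH1, an epithelial marker, was not, with a mean of 7.25, close to the highest of the markers of other cells. Of markers of other cells, the endothelial CDH5 (3.25) and the erythroid HBB (3.70) lay below the filter of 4.14. The leukocyte, endothelial, erythroid and neural genes PTPRC, CD3E, PECAM1, HBA1, GFAP and SNAP25 lay between 4.52 and 7.11. None of these 6 was called against controls in any treated group. VIM, higher by 0.68 in overexpressing cells, was the 1 called gene of the 12 tested, where 2.17% of named genes were called higher. In bulk RNA, a different share of responding cells and a different level per cell cannot be told apart.

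Of the p53 targets, only CDKN1A and TP53I3 were called higher in all 5 treated groups, and most of the list was called in none. Of the 28 tested targets, 7 were called higher in CGG cells, 4 in TRA2A-overexpressing cells, 6 in TRA2A-knockdown cells, 4 in CGG cells with overexpression and 5 in CGG cells with knockdown, each against control cells in limma at an adjusted p under 0.05. No target was called lower, beside 0.165%, 0.298%, 0.42%, 0.159% and 0.298% of transcript clusters in the same order. Of all 67854 transcript clusters tested, the shares called higher were 0.504%, 0.949%, 1.13%, 0.732% and 0.682% in the same order, and of the 23836 named genes 1.11%, 2.17%, 2.76%, 1.72% and 1.66%. The median log2 change of the 28 targets was 0.28, 0.34, 0.44, 0.34 and 0.39, beside 0.07, 0.14, 0.11, 0.15 and 0.09 for all named genes tested. The 5 comparisons share the same 3 control arrays, so their results are not independent of each other. The change was positive in all 5 for 18 of the 28 targets and negative in all 5 for 4. Of named genes 59.4% to 69.5% were positive in each comparison, and the share positive in all 5 was not computed. CDKN1A and TP53I3 were called in all 5 comparisons, TP53INP1 and PMAIP1 in 4, CCNG1 and CD82 in 3 and SFN in 2, while 21 targets were called in none. All 15 treated arrays lay above all 3 control arrays for 6 targets, CDKN1A, TP53I3, TP53INP1, PMAIP1, CCNG1 and SFN, as they did for 1.51% of transcript clusters and 3.49% of named genes tested. For 0 targets did all treated arrays lie below the controls, beside 0.41% of clusters.

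**Figure D1:**
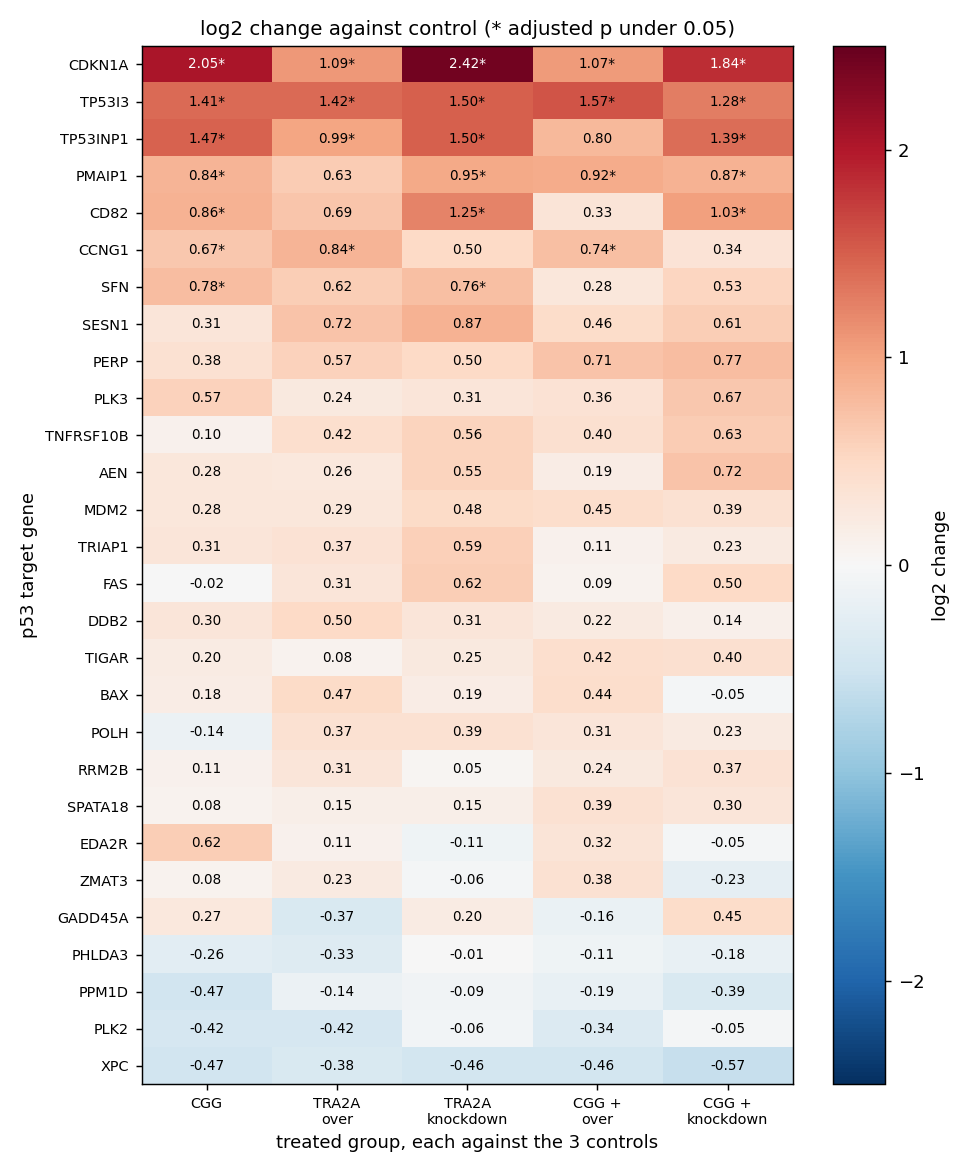
Log2 change of each of the 28 tested p53 targets (rows, by mean change) in the 5 treated groups, each against the 3 control arrays (columns). Colour and number give the change and an asterisk marks an adjusted p under 0.05. CDKN1A, from 1.07 to 2.42, stands at the top, and XPC, from -0.57 to -0.38, at the bottom without a call.

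Of the targets that stop the cell cycle, CDKN1A (TC0600007847.hg.1), the cyclin-dependent kinase inhibitor p21, showed the largest rises. Its log2 signal was 14.22, 14.14 and 14.29 in CGG cells, 13.17, 13.44 and 13.17 in overexpressing cells and 14.85, 14.14 and 14.78 in knockdown cells. In CGG cells with overexpression it was 13.45, 13.02 and 13.26, in CGG cells with knockdown 14.16, 13.88 and 13.99, and in control cells 11.80, 12.15 and 12.56. The arrays thus fell into 3 ranges that do not overlap, with the controls lowest and both overexpressing groups between. The CGG, knockdown and CGG with knockdown groups were highest. The share of all clusters with such ranges was not computed. CDKN1A was 4.13-fold higher in CGG cells than in control cells (log2 change 2.05 ± 0.21 SE, n = 3 and 3, adjusted p = 4.22e-05) and 5.35-fold higher in knockdown cells (2.42 ± 0.21, adjusted p = 3.32e-06). It was 3.58-fold higher in CGG cells with knockdown (1.84 ± 0.21, adjusted p = 0.000122). The rise was 2.13-fold in overexpressing cells (1.09 ± 0.21, adjusted p = 0.0167) and 2.10-fold in CGG cells with overexpression (1.07 ± 0.21, adjusted p = 0.0199). The call in overexpressing cells ended without control array 1 or overexpression array 2 or 3, with an adjusted p of 0.00366 to 0.130 over its alternatives, and that in CGG cells with overexpression without control array 1 or 2 or combined array 1 or 3. The adjusted p of the second was 0.00442 to 0.181, and both calls ended with the variance taken from the compared arrays alone.

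SFN (TC0100007486.hg.1), stratifin, which holds cells before mitosis, was 7.33, 7.65 and 7.61 in CGG cells, 7.17, 7.62 and 7.32 in overexpressing cells and 7.69, 7.48 and 7.37 in knockdown cells. It was 7.07, 6.93 and 7.10 in CGG cells with overexpression and 7.08, 7.30 and 7.48 in CGG cells with knockdown, against 6.59, 6.84 and 6.83 in control cells. Every treated array was above the controls, and those of CGG cells with overexpression were on average nearest to them. SFN rose by 0.78 ± 0.17 in CGG cells (adjusted p = 0.044) and by 0.76 ± 0.17 in knockdown cells (adjusted p = 0.0295). The other changes were 0.62, 0.28 and 0.53 in overexpressing cells and the combined groups with overexpression and knockdown, with adjusted p = 0.0843, 0.536 and 0.205.

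CCNG1 (TC0500009319.hg.1), cyclin G1, was 15.27, 15.29 and 15.30 in CGG cells, 15.30, 15.55 and 15.52 in overexpressing cells and 15.10, 15.05 and 15.18 in knockdown cells. It was, in CGG cells with overexpression, 15.36, 15.30 and 15.41, in CGG cells with knockdown 14.95, 14.84 and 15.07, and in control cells 14.57, 14.52 and 14.75. Its order differed from that of CDKN1A, since its highest group means were those with overexpression and its lowest treated means those with knockdown. CCNG1 rose by 0.67 ± 0.15 in CGG cells (adjusted p = 0.0364), by 0.84 ± 0.15 in overexpressing cells (adjusted p = 0.00754) and by 0.74 ± 0.15 in CGG cells with overexpression (adjusted p = 0.0183). The change was 0.50 in knockdown cells (adjusted p = 0.105) and 0.34 in CGG cells with knockdown (adjusted p = 0.396).

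The other targets of this kind were not called. GADD45A, which is induced by growth arrest and DNA damage, changed by -0.37 to 0.45 over the 5 comparisons, with both signs. PLK3, a polo-like kinase, was positive in all 5 (0.24 to 0.67, smallest adjusted p = 0.167), and PLK2, a kinase of the same family, was negative in all 5 (-0.42 to -0.05, smallest adjusted p = 0.229).

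TP53I3 (TC0200011975.hg.1), the quinone oxidoreductase PIG3 linked to apoptosis, had almost the same rise in each treated group. It was 9.60, 9.29 and 9.38 in CGG cells, 9.41, 9.65 and 9.22 in overexpressing cells and 9.61, 9.15 and 9.77 in knockdown cells. It was 9.71, 9.44 and 9.60 in CGG cells with overexpression and 9.31, 9.02 and 9.53 in CGG cells with knockdown, against 8.01, 8.10 and 7.92 in control cells. The 5 treated groups overlapped each other and none overlapped the controls. TP53I3 was 2.66-fold higher in CGG cells (1.41 ± 0.19, adjusted p = 0.000669), 2.67-fold in overexpressing cells (1.42 ± 0.19, adjusted p = 0.00104) and 2.83-fold in knockdown cells (1.5 ± 0.19, adjusted p = 0.000236). In CGG cells it was 2.98-fold higher with overexpression (1.57 ± 0.19, adjusted p = 0.000315) and 2.42-fold higher with knockdown (1.28 ± 0.19, adjusted p = 0.00139) than in control cells. Leaving out any 1 array ended none of these 5 calls.

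TP53INP1 (TC0800011150.hg.1), a stress-induced protein that acts with p53 in apoptosis and autophagy, was 8.43, 8.45 and 8.58 in CGG cells, 7.98, 7.95 and 8.11 in overexpressing cells and 8.79, 8.49 and 8.28 in knockdown cells. In CGG cells with overexpression it was 7.84, 7.65 and 7.98, in CGG cells with knockdown 8.04, 8.18 and 9.01, and in control cells 7.13, 6.94 and 6.99. As with CDKN1A, both overexpressing groups lay above the controls and, except for array 1 of CGG cells with knockdown, below the other treated groups. TP53INP1 was 2.76-fold higher in CGG cells (1.47 ± 0.21, adjusted p = 0.00137), 2.83-fold in knockdown cells (1.5 ± 0.21, adjusted p = 0.000668) and 2.62-fold in CGG cells with knockdown (1.39 ± 0.21, adjusted p = 0.00174). It rose by 0.99 ± 0.21 in overexpressing cells (adjusted p = 0.0262), a call that ended without any 1 of these arrays or control array 1 or 2. In CGG cells with overexpression the change of 0.80 ± 0.21 did not pass (adjusted p = 0.0827).

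PMAIP1 (TC1800007471.hg.1), the pro-apoptotic protein NOXA, was 6.18, 6.25 and 6.67 in CGG cells, 6.24, 6.22 and 6.0 in overexpressing cells and 6.80, 6.30 and 6.32 in knockdown cells. It was 6.38, 6.47 and 6.49 in CGG cells with overexpression and 6.67, 6.13 and 6.37 in CGG cells with knockdown, against 5.37, 5.60 and 5.60 in control cells. No treated array overlapped the controls, and overexpressing array 3 was the nearest to them. All values of PMAIP1 lay within the range of the tested markers of other cells, whose means were 4.52 to 7.11. So did the control means of SFN (6.75) and TP53INP1 (7.02), and no detection calls were used. PMAIP1 rose by 0.84 ± 0.19 in CGG cells (adjusted p = 0.0469), 0.95 ± 0.19 in knockdown cells (adjusted p = 0.0125), 0.92 ± 0.19 in CGG cells with overexpression (adjusted p = 0.0244) and 0.87 ± 0.19 in CGG cells with knockdown (adjusted p = 0.0304). In overexpressing cells the change was 0.63 (adjusted p = 0.108).

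CD82 (TC1100007394.hg.1), a tetraspanin known as a suppressor of metastasis, was 8.42, 8.50 and 8.74 in CGG cells, 8.32, 8.33 and 8.48 in overexpressing cells and 9.14, 8.82 and 8.85 in knockdown cells. It was 8.27, 7.73 and 8.05 in CGG cells with overexpression and 8.52, 8.94 and 8.71 in CGG cells with knockdown, against 7.86, 7.34 and 7.87 in control cells. Only CGG cells with overexpression overlapped the controls. CD82 rose by 0.86 ± 0.19 in CGG cells (adjusted p = 0.044), 1.25 ± 0.19 in knockdown cells (adjusted p = 0.00153) and 1.03 ± 0.19 in CGG cells with knockdown (adjusted p = 0.00994). The change was 0.69 in overexpressing cells (adjusted p = 0.0841) and 0.33 in CGG cells with overexpression (adjusted p = 0.513).

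**Figure D2:**
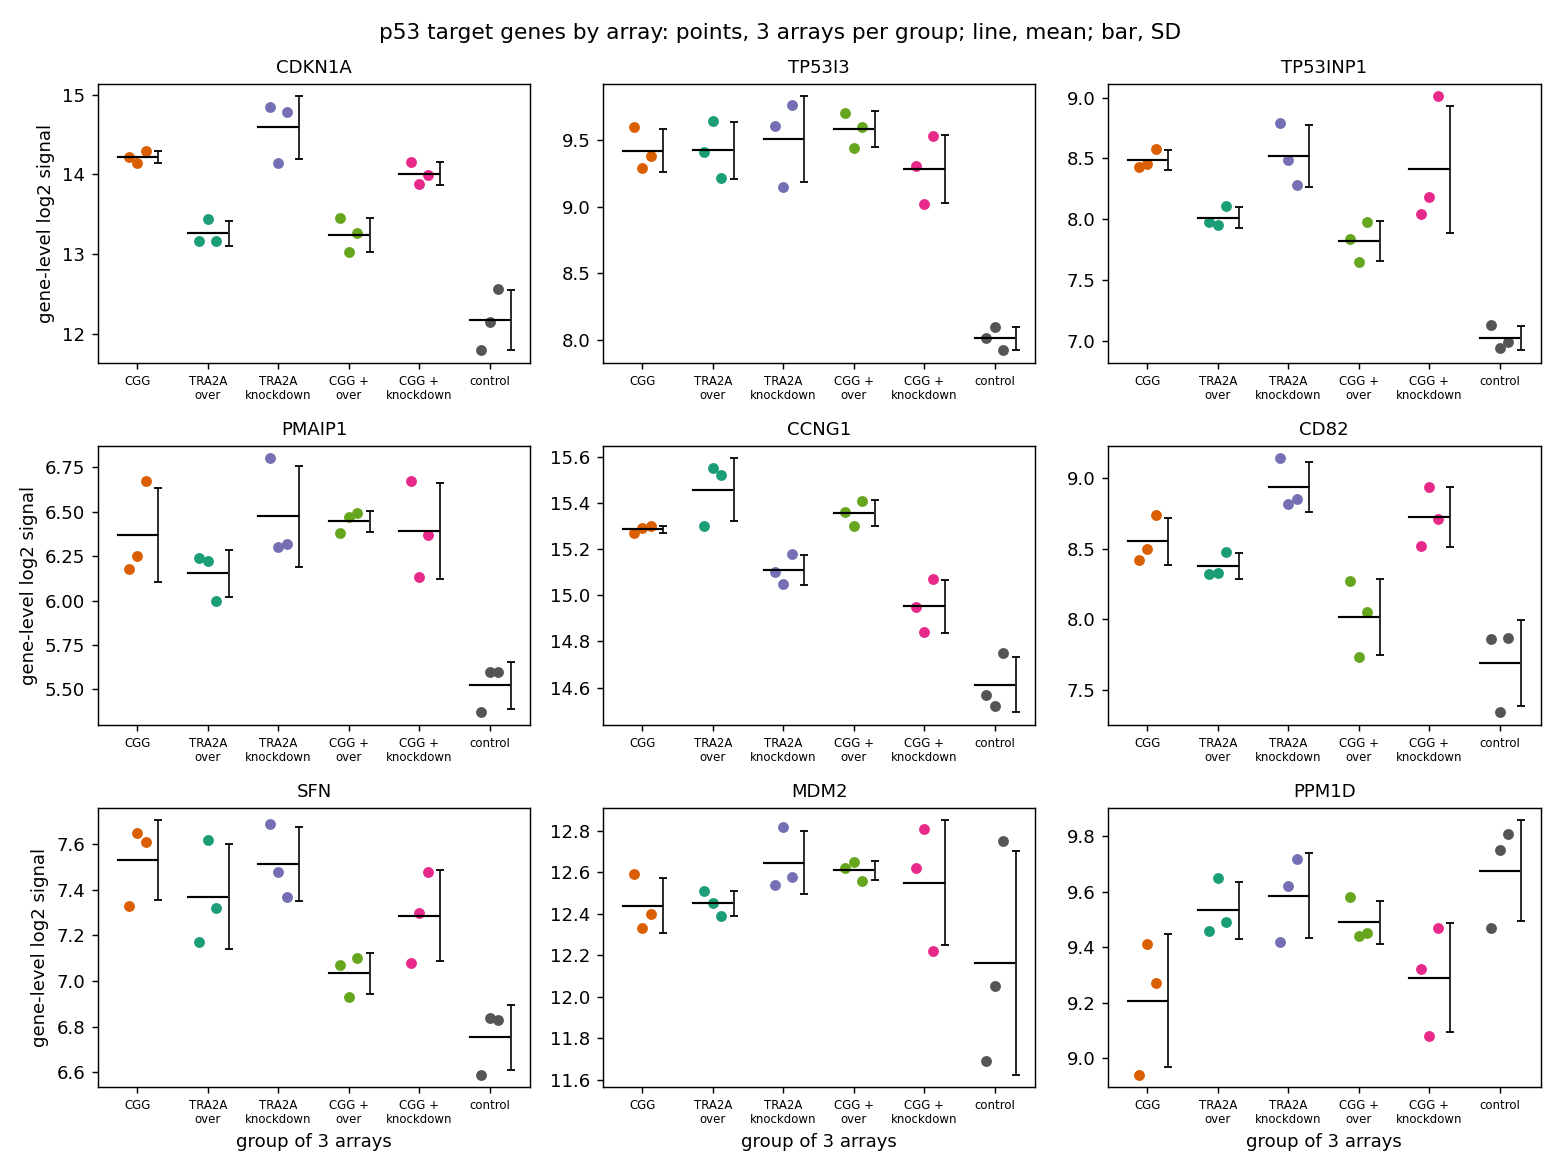
Gene-level log2 signal of 9 p53 targets in every array, 3 points per group, with the group mean (line) and SD (bar). The controls, at the right of each panel, lie below all treated arrays for CDKN1A, TP53I3, TP53INP1, PMAIP1, CCNG1 and SFN, whereas for MDM2 they spread from 11.69 to 12.75 around the treated arrays. The signal axes do not start at 0 and differ between panels.

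The calls of the smaller rises often ended when 1 array was left out. In CGG cells the call of PMAIP1 ended without any 1 of the 6 arrays compared, and that of SFN without any but CGG array 1. Those of CCNG1 and CD82 ended without any but control array 3, and also with a term for rehybridisation in the fit. In knockdown cells the call of SFN ended without any array but control array 3, and that of PMAIP1 without control array 1 or knockdown array 1. With overexpression the call of CCNG1 ended without overexpression array 2 or 3, and in CGG cells with overexpression those of CCNG1 and PMAIP1 ended without any array but control array 3. PMAIP1 in CGG cells with knockdown lost its call without control array 1 or 2 or combined array 1 or 3, and CD82 without control array 2 or combined array 2.

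The inhibitors of p53 among its targets were not called. MDM2 (TC1200008116.hg.1), the ubiquitin ligase that degrades p53, was 12.59, 12.33 and 12.40 in CGG cells, 12.51, 12.45 and 12.39 in overexpressing cells and 12.54, 12.82 and 12.58 in knockdown cells. It was 12.62, 12.65 and 12.56 in CGG cells with overexpression and 12.62, 12.81 and 12.22 in CGG cells with knockdown, against 11.69, 12.05 and 12.75 in control cells. Control arrays 1 and 2 lay below every treated array and control array 3 within their range. The changes of MDM2 ran from 0.28 (95% interval -0.18 to 0.74, adjusted p = 0.651) in CGG cells to 0.48 (0.02 to 0.94, adjusted p = 0.351) in knockdown cells, and without control array 3 MDM2 was called higher in knockdown cells.

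PPM1D (TC1700008498.hg.1), the phosphatase WIP1 that reverses the activation of p53, was 8.94, 9.41 and 9.27 in CGG cells, 9.46, 9.65 and 9.49 in overexpressing cells and 9.42, 9.62 and 9.72 in knockdown cells. It was 9.58, 9.44 and 9.45 in CGG cells with overexpression and 9.32, 9.08 and 9.47 in CGG cells with knockdown, against 9.47, 9.75 and 9.81 in control cells. Only the CGG arrays lay below all controls, by a change of -0.47 (95% interval -0.83 to -0.11, adjusted p = 0.247). The other 4 changes were between -0.39 and -0.09.

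Control array 3 held the highest control value for 16 of the 28 targets (57.1%), control array 2 for 10 and control array 1 for 1, beside 45.7%, 26.1% and 26.8% of named genes. EDA2R, a receptor of the tumour necrosis factor family, was the clearest case, with 8.47 in control array 3 against 6.89 and 6.67 in control arrays 1 and 2, and 7.02 to 8.18 in treated arrays. Without control array 3, EDA2R was called in CGG cells and in CGG cells with overexpression. Under the same omission PERP was called in overexpressing cells and both combined groups, and AEN in CGG cells with knockdown.

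Among the other apoptosis genes, PERP, a membrane protein of desmosomes, was positive in all 5 comparisons (0.38 to 0.77, smallest adjusted p = 0.0729), as were AEN, a nuclease (0.19 to 0.72), and TNFRSF10B, a death receptor for TRAIL (0.10 to 0.63). BAX, which permeabilises mitochondria, changed by -0.05 to 0.47, and FAS, the death receptor, by -0.02 to 0.62. TRIAP1, an inhibitor of apoptosis, changed by 0.11 to 0.59 and PHLDA3, a repressor of AKT, by -0.33 to -0.01. EDA2R changed by -0.11 to 0.62. SPATA18, of mitochondrial quality control, changed by 0.08 to 0.39. None of these 9 passed the test.

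The DNA repair targets differed in sign and none was called. XPC, which recognises damage in nucleotide excision repair, was the most negative target in every comparison but that of overexpressing cells, at -0.57 to -0.38 (smallest adjusted p = 0.331). DDB2, which acts in the same step, was positive in all 5 (0.14 to 0.50). RRM2B, a subunit of ribonucleotide reductase, changed by 0.05 to 0.37 and POLH, a polymerase that copies past damage, by -0.14 to 0.39. Of the metabolic targets, SESN1, a sestrin, came close to a call in knockdown cells (0.87 ± 0.22, adjusted p = 0.0569), with 8.29, 7.99 and 8.08 there against 7.16, 7.44 and 7.16 in control cells. TIGAR, a regulator of glycolysis, changed by 0.08 to 0.42. ZMAT3, an RNA-binding zinc finger protein, changed by -0.23 to 0.38.

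The next question is whether altered TRA2A shifted the targets within CGG cells. No target was called in limma in CGG cells with overexpression against CGG cells (6 at an unadjusted p under 0.05), where 0.0383% of transcript clusters were called in either direction. Nor was any in CGG cells with knockdown against CGG cells (6 at an unadjusted p under 0.05), where 0.147% were called. CDKN1A had the largest difference, with 13.02 to 13.45 in CGG cells with overexpression against 14.14 to 14.29 in CGG cells (-0.97 ± 0.21, 95% interval -1.42 to -0.53, adjusted p = 0.147). It was called under a trended and robust variance. In the same comparison TP53INP1 differed by -0.66 (adjusted p = 0.332), CD82 by -0.54 (adjusted p = 0.401) and SFN by -0.50 (adjusted p = 0.386). Each of these had no overlap of arrays. Of the 28 targets, 5 lay lower without overlap, beside 5.12% of transcript clusters, and 3 lay higher, beside 9.24%. Changes were positive for 18 targets and negative for 10, with a median of 0.09, beside 0.08 for named genes. With knockdown, CDKN1A differed from CGG cells by -0.21 (95% interval -0.65 to 0.24), TP53I3 by -0.14 (-0.54 to 0.26) and TP53INP1 by -0.08 (-0.52 to 0.37).

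Comparisons without the control arrays were added after the values had been seen. CDKN1A was 2.51-fold lower in TRA2A-overexpressing cells than in TRA2A-knockdown cells (-1.33 ± 0.21, n = 3 and 3, adjusted p = 0.00437), the 1 target called there, where 0.405% of transcript clusters were called. In CGG cells with overexpression against CGG cells with knockdown, CDKN1A differed by -0.77 (95% interval -1.21 to -0.32, adjusted p = 0.189) and CD82 by -0.71 (adjusted p = 0.174). There 0 targets were called, with 8 at an unadjusted p under 0.05 and 0.379% of clusters called. CGG cells with overexpression differed from overexpressing cells by -0.02 (-0.46 to 0.43) for CDKN1A and by 0.16 (-0.24 to 0.56) for TP53I3. There 0 targets were called, with 0 at an unadjusted p under 0.05 and 0.0059% of clusters called. TRA2A itself was lower with CGG in this comparison (mean 17.16 against 18.53), and only the titles without CGG name GFP. CGG was therefore not the only difference between these groups. Adding CGG to knockdown cells moved CDKN1A by -0.58 (-1.03 to -0.13, adjusted p = 0.991) and TP53I3 by -0.22 (-0.62 to 0.18), with 0 targets called, 1 at an unadjusted p under 0.05 and 0% of clusters called.

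The combined treatments were also set against the sum of the single ones. This interaction is the change of the combined group against controls minus the sum of the changes of the single groups. With overexpression it was called lower for CDKN1A (-2.06 ± 0.30, adjusted p = 0.00466) and TP53INP1 (-1.66 ± 0.30, adjusted p = 0.0236), where 0.197% of transcript clusters were called lower. For CDKN1A the combined change was 1.07, beside 2.05 with CGG alone and 1.09 with overexpression alone. With knockdown it was called lower for CDKN1A (-2.63 ± 0.30, adjusted p = 0.000299), TP53I3 (-1.64 ± 0.27, adjusted p = 0.0129) and TP53INP1 (-1.58 ± 0.30, adjusted p = 0.0363), where 0.13% were called lower. CDKN1A kept both calls under all 20 alternatives for each. The call of TP53INP1 with overexpression ended without control array 1, CGG array 2 or 3, overexpression array 2 or 3, or combined array 1 or 2. With knockdown TP53I3 lost its call without knockdown array 1 or combined array 2 and with a term for rehybridisation, and TP53INP1 without any 1 array but control array 2, knockdown array 3 or combined array 3. The interactions use the same 3 control arrays as the comparisons with controls. A change common to all treated groups enters the interaction with a negative sign, and it cannot be told apart here from a difference in the response to CGG. The interaction with overexpression also holds the lower TRA2A level of the combined group (mean 17.16, against 18.53 in overexpressing cells).

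**Figure D3:**
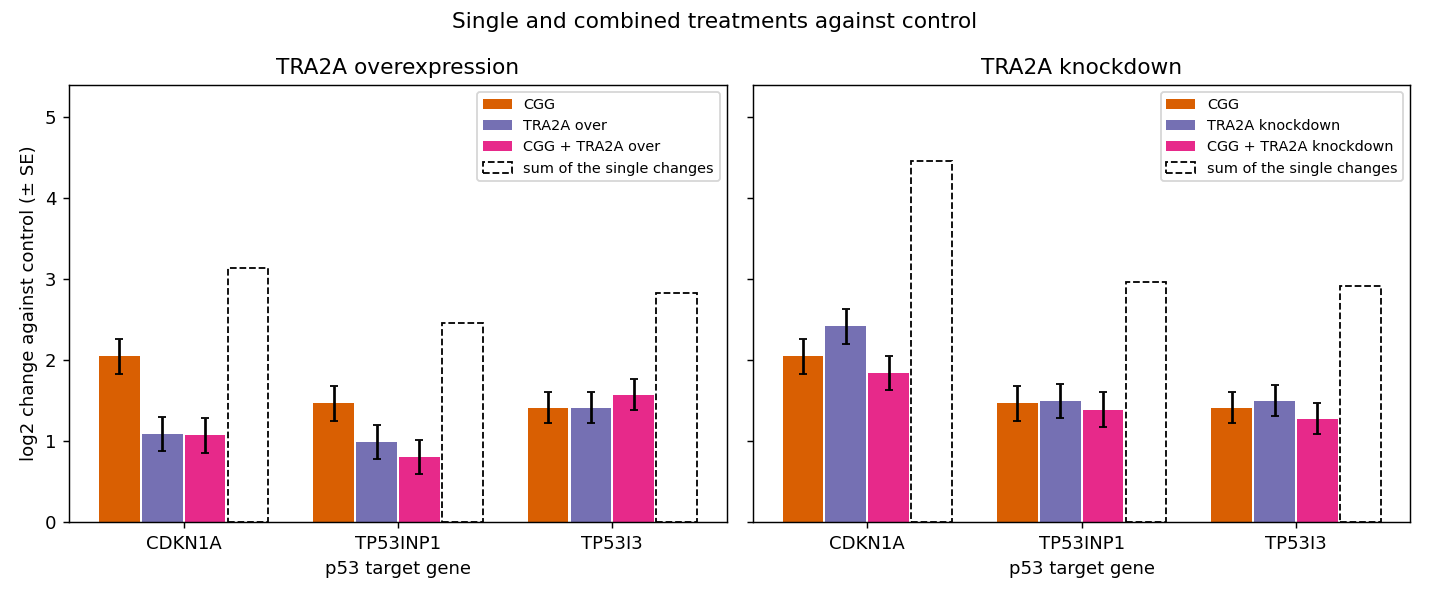
Log2 change against the 3 control arrays (bars, with SE) of CDKN1A, TP53INP1 and TP53I3 for CGG, altered TRA2A and both, with TRA2A overexpression at the left and knockdown at the right. The dashed bar is the sum of the single changes, and the combined bar lies below it for each gene on both sides. For CDKN1A with overexpression the combined change is 1.07, beside 2.05 and 1.09 for the single ones.

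Other genes of the pathway were read from lists. Of 18 genes for p53 relatives, kinases and cofactors, 14 were tested. RCHY1, a ubiquitin ligase for p53, was the 1 called, higher by 0.86 ± 0.19 in knockdown cells (adjusted p = 0.0226). There 2.76% of named genes were called higher, and 1.11% to 2.76% over all comparisons with controls. Of 36 further p53 targets, 32 were tested. Those called higher numbered 2 in CGG cells, 3 in overexpressing cells, 4 in knockdown cells, 3 in CGG cells with overexpression and 4 in CGG cells with knockdown, and none was called lower. The shares of named genes called higher were 1.11%, 2.17%, 2.76%, 1.72% and 1.66% in the same order. GDF15, a secreted stress cytokine, was called in all 5, with changes of 3.82 in CGG cells, 1.81 in overexpressing cells, 3.82 in knockdown cells, and 2.02 and 3.75 in CGG cells with overexpression and with knockdown. GDF15 lay between 8.30 and 9.0 in both overexpressing groups and between 10.01 and 10.74 in the other treated groups, against 6.53, 6.25 and 7.05 in control cells. This is the same order of ranges as for CDKN1A, and its share over all clusters was not computed. It was lower by -1.79 ± 0.25 in CGG cells with overexpression than in CGG cells (adjusted p = 0.0081). Its interactions with overexpression and knockdown were -3.60 and -3.88. In the comparisons added after the values were seen, GDF15 was lower by -2.01 in overexpressing than in knockdown cells, and by -1.73 in CGG cells with overexpression than in CGG cells with knockdown.

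SESN2, a sestrin, rose by 1.0 in CGG cells, 0.97 in overexpressing cells and 1.11 in CGG cells with overexpression. STEAP3, a metalloreductase, rose by 0.68 in overexpressing cells and 0.86 in CGG cells with overexpression. In knockdown cells APAF1, the scaffold of the apoptosome, rose by 1.08, ANKRA2 by 1.04 and E2F7, a transcriptional repressor of the cell cycle, by 1.0. Together with CGG, knockdown came with rises of ANKRA2 by 1.04, E2F7 by 0.99 and LIF, a cytokine, by 0.74. Median changes of the 32 genes were 0.22, 0.34, 0.34, 0.42 and 0.34 in CGG, overexpressing and knockdown cells and the combined groups with overexpression and with knockdown.

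Of 20 cell cycle genes that p53 is known to lower through p21, at most 2 were called lower in any comparison with controls. Of all transcript clusters 0.159% to 0.42% were called lower there. In CGG cells 0 were called in limma (6 at an unadjusted p under 0.05) with a median of 0.09. In knockdown cells TOP2A, topoisomerase II alpha, fell by 1.08 (adjusted p = 0.00375) and CCNB2, cyclin B2, by 0.72 (adjusted p = 0.0414), with a median of -0.06. TOP2A fell by 1.0 in CGG cells with knockdown (adjusted p = 0.00935). In overexpressing cells KIF20A, a mitotic kinesin, rose by 0.93, with a median of 0.27 and 2.17% of named genes called higher. In CGG cells with overexpression BUB1, a spindle checkpoint kinase, rose by 0.86, with a median of 0.26 and 1.72% of named genes called higher. CDC20, an activator of the anaphase-promoting complex, was higher by 1.02 in overexpressing than in knockdown cells (adjusted p = 0.0373), and by 1.15 in CGG cells with overexpression than in CGG cells with knockdown (adjusted p = 0.0155). BUB1 was higher by 1.18 in CGG cells with overexpression than in CGG cells with knockdown (adjusted p = 0.00247). These comparisons were added after the values were seen.

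Genes of the integrated stress response were called in the same comparisons. Of 12 tested, 6 were called higher in CGG, in overexpressing and in knockdown cells, 8 in CGG cells with overexpression and 5 in CGG cells with knockdown. Of named genes 1.11% to 2.76% were called higher in these comparisons. DDIT3, the transcription factor CHOP, was at 7.35 to 8.97 in treated arrays against 5.70, 5.68 and 6.03 in control cells, with changes of 2.46, 2.32, 1.71, 2.80 and 2.55 in the 5 groups in that order. SLC7A11, a cystine transporter, HERPUD1, of the degradation of misfolded proteins, and PPP1R15A, a phosphatase subunit for eIF2 alpha, were also called in all 5. ATF3, a transcription factor, was called in all but overexpressing cells, with changes of 0.95 to 1.2. DDIT4, an inhibitor of mTORC1, was called in CGG cells (1.12), overexpressing cells (0.94) and CGG cells with overexpression. CHAC1, which degrades glutathione, was called in overexpressing cells (1.33) and CGG cells with overexpression (1.83), and CEBPB, a transcription factor, in knockdown cells (0.75). The interaction with overexpression was called for DDIT3 (-1.98) and SLC7A11 (-1.78), and that with knockdown for SLC7A11 (-1.74) and ATF3 (-1.25). The part of this response in the values of the p53 targets was not tested.

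A second table gave values for exon regions and exon-exon junctions, and each was taken relative to its gene in the same array. For 27 of the targets 358 such features were tested among 230888. The positions of the features within the genes are not given in the sources used here. In CGG cells 2 features were called higher and 2 lower (0.602% of all features were called), in overexpressing cells 1 and 2 (0.191%) and in knockdown cells 1 and 5 (0.303%). Between CGG cells with overexpression and CGG cells 0 were called in limma, with 33 at an unadjusted p under 0.05 and 0.00563% of all features called. With knockdown against CGG cells 0 were called, with 15 at an unadjusted p under 0.05 and 0.0078% of all features called.

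A junction of BAX (JUC1900056413.hg.1) was high wherever the repeat construct was present, although BAX as a gene was not called. Its log2 signal was 13.38, 14.56 and 14.18 in CGG cells, 11.88, 12.55 and 12.61 in overexpressing cells and 11.99, 11.60 and 11.89 in knockdown cells. With overexpression in CGG cells it was 13.56, 13.09 and 13.12, in CGG cells with knockdown 13.32, 13.92 and 13.78, and in control cells 11.41, 12.18 and 11.46. All 9 arrays with the construct lay above all 9 without it, a split for which the share over all features was not computed. Relative to BAX, the junction rose by 2.17 ± 0.22 in CGG cells against controls (adjusted p = 6.91e-05). In separate arrays, compared after the values were seen, it rose by 2.09 ± 0.22 in CGG cells with knockdown against knockdown cells (adjusted p = 0.000181, 0.097% of features called) and differed by 0.94 in CGG cells with overexpression against overexpressing cells (adjusted p = 0.452, 0.0554% called). No other BAX feature was called in the 5 comparisons, and JUC1900056408.hg.1 had the next largest relative change in CGG cells (1.47, adjusted p = 0.0555).

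An exon region of PLK2 (PSR0500175528.hg.1) was lowest with TRA2A overexpression. It was 15.05, 14.73 and 14.75 in CGG cells, 14.20, 14.40 and 14.12 in overexpressing cells and 15.40, 15.51 and 15.32 in knockdown cells. It was 14.36, 14.36 and 14.10 in CGG cells with overexpression and 15.73, 15.09 and 15.40 in CGG cells with knockdown, against 16.20, 16.01 and 16.26 in control cells. Both overexpressing groups were lowest and the controls highest, with no overlap, an order for which the share over all features was not computed. The relative change was -1.49 ± 0.20 in overexpressing cells against controls (adjusted p = 0.0035), and -0.90 (adjusted p = 0.0523) and -0.69 (adjusted p = 0.165) in CGG and knockdown cells. All 46 tested features of PLK2 had a negative change of their own against controls in CGG, overexpressing and knockdown cells, with medians of -0.65, -0.73 and -0.36. These medians were more negative than the changes of PLK2 as a gene. The relative change of the region thus overstates how far it departed from the other features.

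In TP53INP1 and CDKN1A single regions did not follow the gene. The TP53INP1 region PSR0800175982.hg.1 was 7.71, 8.68 and 8.80 in CGG cells, 7.35, 6.38 and 7.51 in overexpressing cells and 7.95, 8.59 and 8.13 in knockdown cells. It was 7.93, 8.13 and 7.94 in CGG cells with overexpression and 8.43, 8.56 and 8.48 in CGG cells with knockdown, against 8.93, 9.01 and 8.46 in control cells. The overexpressing arrays were lowest. While the gene rose, the region fell by 1.72 ± 0.30 in overexpressing cells (adjusted p = 0.0037), and its own changes in CGG and knockdown cells were -0.40 and -0.58 (adjusted p = 0.462 and 0.247). Relative to the gene it was called lower in all 3, by -1.87, -2.71 and -2.08 in CGG, overexpressing and knockdown cells. The 7 tested features of TP53INP1 had median changes of their own of 1.14, 0.80 and 1.25, smaller than the rises of the gene. The relative change of this region thus also overstates how far it departed from the other features. The CDKN1A region PSR0600154444.hg.1 lay between 13.50 and 14.44 in treated arrays and at 14.05, 13.77 and 13.64 in control cells. Relative to CDKN1A it was lower by -1.90 ± 0.31 in CGG cells (adjusted p = 0.00607) and -2.13 ± 0.31 in knockdown cells (adjusted p = 0.00586), while its own changes were 0.14 and 0.29, neither called. All 8 tested CDKN1A features had a positive change of their own, with medians of 1.96, 1.04 and 2.31 in CGG, overexpressing and knockdown cells.

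The TP53I3 region PSR0200186996.hg.1 rose more than its gene. It was 11.27, 11.26 and 11.22 in CGG cells, 11.10, 11.15 and 11.12 in overexpressing cells and 11.36, 10.91 and 10.80 in knockdown cells. It was 11.34, 11.10 and 11.22 in CGG cells with overexpression and 11.05, 10.66 and 11.21 in CGG cells with knockdown, against 8.34, 8.65 and 8.36 in control cells. All treated arrays lay well above the controls. Its change relative to TP53I3 was 1.39 ± 0.20 (adjusted p = 0.002), 1.26 ± 0.20 (adjusted p = 0.0148) and 1.07 ± 0.20 (adjusted p = 0.0284) in the 3 groups in that order. In knockdown cells 2 CD82 regions, PSR1100152309.hg.1 (-1.42, adjusted p = 0.0151) and PSR1100152310.hg.1 (-1.10, adjusted p = 0.0174), were lower relative to their gene. Their own levels were 9.15 and 11.48 on average in knockdown cells, against 9.32 and 11.33 in control cells. All 9 tested features of TP53I3 and all 26 of CCNG1 had a positive change of their own in CGG, overexpressing and knockdown cells. Of 17 features of CD82, 14, 13 and 14 were positive in that order. PMAIP1 had 3 of 4 positive in each, and SFN had only 1 tested feature, which was positive. The share of genes with all features of the same sign was not computed. Several of the relative calls named above ended without 1 array. That of TP53I3 ended without control array 1 or overexpression array 3 in overexpressing cells, and without control array 1 or 2 or knockdown array 1 or 2 in knockdown cells. That of TP53INP1 ended without control array 1 or 2, CGG array 1 or knockdown array 1 in CGG and knockdown cells. The CD82 calls ended without control array 1 or knockdown array 1, and also without control array 2 for PSR1100152309.hg.1 and knockdown array 2 for PSR1100152310.hg.1.

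**Figure D4:**
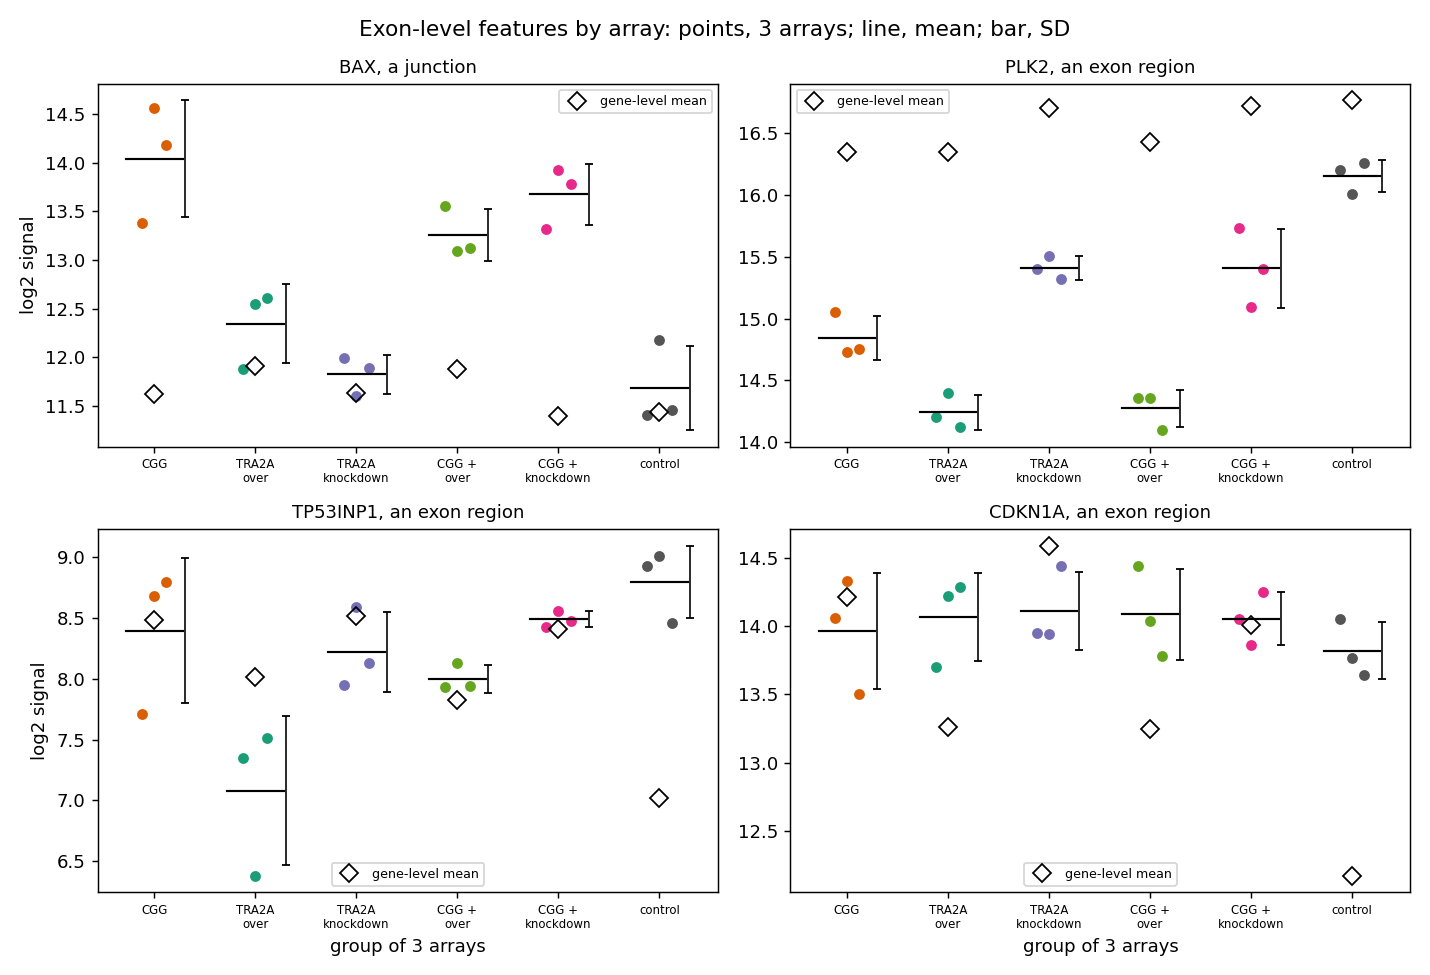
Log2 signal of a BAX junction and of exon regions of PLK2, TP53INP1 and CDKN1A in every array, 3 points per group, with the group mean (line), SD (bar) and the mean of the gene as a whole (diamond). The BAX junction lies at 13.09 to 14.56 in the arrays with the repeat construct and at 11.41 to 12.61 in the others, and the CDKN1A region is level across groups while its gene is lowest in controls. The signal axes do not start at 0 and differ between panels.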

How the data were processed

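Log2 signals per transcript cluster and, in a second table, per exon region and junction were deposited by the authors for 18 arrays. They were made by SST-RMA, robust multi-array averaging after a signal space transformation, per the file headers and the labels. RMA and the Transcriptome Analysis Console are named without versions per the submitters' processing notes, and the build is not given in the sources used here. No detection calls were used, and precision is limited by having 3 arrays a group. Monkey transcripts that differ from the human probes can read low in all groups alike.

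From these values, group means of all 18 arrays were fitted in limma 3.58.1 (R 4.3.3, lmFit and eBayes, two-sided) for 7 pairwise comparisons and 2 interactions, and 4 pairwise comparisons were added after the values were seen. Clusters with a mean above the median of means (4.14), 67854 of 135750, were tested. A call was an adjusted p under 0.05 (Benjamini-Hochberg over all tested). Of the tested clusters 25413 carried 1 symbol, 874 several and 41567 none. At the exon level a feature's value minus its gene's was tested for 230888 features with a mean above 7.46, in 18009 genes with at least 3 features. The fits were tested on simulated data for CGG against control. Of 100 simulated log2 changes of 0.75, 9 were called in the right direction, and of 100 of 1.5, 81 were. Of the unchanged clusters 8 were called. A target that was not called may therefore still have changed. These shares need not hold for the real comparisons, as the simulation changed fewer clusters than the 454 called in CGG cells against controls.

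The targets, the other lists and the rules were chosen with earlier results of these data known. Named in full were targets called in a pairwise comparison, CDKN1A, MDM2 and PPM1D, targets called in an interaction, every called gene of a further list (the 4 largest where over 6 were called in a comparison), TRA2A, and up to 5 called exon features per comparison. Further features and PLK2's other groups were picked with their values in view. The alternatives tried were other filters, quantile normalization, other variance estimates, the replicate number as a block, a term for rehybridisation, calls by a 2-fold change and p under 0.05 before adjustment, and each array left out in turn. A promoter search was not run, as no sequences were used here.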

Additional observations from a re-analysis of the deposited data

Results flagged for a closer look

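For 3 p53 targets the change of a combined group differed from the sum of the single changes by the interaction in limma. With overexpression, the CGG change of CDKN1A was lower by -2.06 and that of TP53INP1 by -1.66 than the CGG change in cells with unaltered TRA2A. With knockdown it was lower by -2.63 for CDKN1A, -1.64 for TP53I3 and -1.58 for TP53INP1. In values, CDKN1A moved by -0.02 with CGG in overexpressing cells and by -0.58 in knockdown cells, neither called. It moved by 2.05 in cells with unaltered TRA2A, the 1 of the 3 comparisons that uses the control arrays. TRA2A itself was lower in CGG cells with overexpression (mean 17.16) than in overexpressing cells (18.53). The controls have no named transfection, so a change common to all treated groups enters the interaction with a negative sign and cannot be told apart from a dependence on TRA2A. Whether a single array stood apart from its group was not tested, since each group has 3 arrays.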

How the results depend on the processing

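Counts of called targets in the order CGG, overexpression, knockdown, CGG with overexpression and CGG with knockdown, each against controls, were 7, 4, 6, 4 and 5. With the variance from the compared arrays alone they were 3, 1, 3, 1 and 1, overexpression against knockdown had 0 in place of 1, and the knockdown interaction 1 in place of 3. Without a filter CGG had 3, and by a 2-fold change and p under 0.05 before adjustment CGG had 3, overexpression 2 and CGG with overexpression 2. By that rule both interactions had 5. The overexpression interaction had 5 in place of 2 above the 75th percentile and with a trended and robust variance, and under the latter CGG with overexpression against CGG had 1, CDKN1A. A term for rehybridisation left 1 call in the knockdown interaction.

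With the replicate number as a block CGG had 4. Same-numbered arrays did not deviate together (mean correlations of -0.014, 0.011 and -0.0001 for numbers 1 to 3, and 0.0006 between numbers), and 4 of 18 arrays correlated best with their own number, so the numbers were not taken to pair the arrays. The block moved no other count of calls by over 1.5 times.

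Leaving out 1 array gave 3 to 6 calls for CGG, 1 to 5 for overexpression, 4 to 7 for knockdown, 1 to 6 for CGG with overexpression, 3 to 7 for CGG with knockdown, 1 to 2 and 1 to 3 for the interactions with overexpression and knockdown, and 1 for overexpression against knockdown. It gave 0 for the other comparisons between treated groups. The lowest CGG count, 3, came on leaving out control array 1, control array 2, CGG array 2 or CGG array 3. CDKN1A, TP53I3 and TP53INP1 kept their calls in CGG and in knockdown cells against controls under all 14 alternatives for each. After quantile normalization the median target change was 0.20 to 0.33 against controls, and no count moved by over 1.5 times.

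Exon features not taken relative to their gene gave 78, 72 and 73 calls for CGG, overexpression and knockdown, and 2 and 3 for CGG with overexpression and with knockdown against CGG. On that scale the changes of the CDKN1A region PSR0600154444.hg.1 were 0.14 in CGG and 0.29 in knockdown cells, and in knockdown cells those of the CD82 region PSR1100152310.hg.1 and the CDKN1A region PSR0600154453.hg.1 were 0.14 and 1.49, each with the sign turned because the change of the gene is no longer taken off. Relative calls numbered 3 to 8, 2 to 7 and 1 to 10 for CGG, overexpression and knockdown with 1 array left out, and 0 against CGG. The calls of the BAX junction in CGG cells and of the PLK2 region in overexpressing cells held under all 9 alternatives for each. Except where stated, the cause of a changed count was not tested.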
